A study of Mus musculus with 4 samples.

Results

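The nuclear-encoded oxidative phosphorylation genes were examined as a group in mouse TBV2 embryonic stem (ES) cells after knockdown (KD) of the ultraconserved long noncoding RNA T-UCstem1. A gene was a member if its symbol began with Nduf, Uqcr or Atp5, or with Cox and a digit from 4 to 8, or was Sdha, Sdhb, Sdhc, Sdhd, Cyc1 or Cycs. The rule gave 94 of 23653 gene symbols, each in 1 row of the table. They comprised 36 subunits of complex I (7 core and 29 accessory) and 7 of its Ndufaf assembly factors, 4 genes of complex II, 9 of complex III, cytochrome c, 20 of complex IV and 17 of complex V. The rule uses symbols and no measured value, although it was written with earlier results of these data known.

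TBV2 is a mouse ES cell line. The control (NT, for the label N.T.) was 1 library, and the KD was 3 libraries, each of a different clone labelled KD.uc.170 with the genotype T-UCstem1 KD. The labels do not say how the knockdown was made or how the control was treated. All cells grew in serum and LIF, and according to the design text on feeder cells at high density. No row of the table carries a name of T-UCstem1, so its own level was not checked. The authors combined the 3 clones, so each gene has 1 value for the KD and 1 for NT in FPKM, which counts fragments relative to transcript length and to all mapped fragments. Values of single clones were not analysed here, no spread between cultures accompanies any number below, and the read depth is not stated.

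Oxidative phosphorylation moves electrons from NADH and succinate through complexes I and II to ubiquinone, then through complex III, cytochrome c and complex IV to oxygen. The protons pumped on the way drive ATP synthase, complex V. All complexes but II also hold subunits encoded by mitochondrial DNA. ES cells in serum and LIF use glycolysis and respiration side by side. Cytochrome c has a separate role, since its release from mitochondria activates caspases.

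The RNA level of the group as a whole was close to equal in KD and NT cells, and Cycs was the only member that the authors' test called. Summed over the 94 members, the level was 17664 FPKM in the KD and 17263 FPKM in NT cells, a ratio of 1.02. These sums were 2.72% and 2.57% of all FPKM in the table. Of the members, 91 reached 1 FPKM in either condition. Their median log2((KD FPKM + 1)/(NT FPKM + 1)), called the log2 fold here, was 0.0055, with quartiles of -0.13 and 0.17. The 12330 named rows of the table at the same level had a median of 0.022 and quartiles of -0.16 and 0.22. Above 0 were 47 members, or 51.6%, where 53.1% of those named rows were, and below 0 were 44 members.

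Cycs was 1 of 92 tested members with the authors' mark, or 1.09%, where 1.15% of all 15477 tested rows carried it in either direction and 0.963% were marked as higher in the KD. No member was marked as lower, as 0.187% of all rows were. A share so near that of all rows says nothing about the group. Cycs, Ndufa4 and Ndufs7 were the 3 members with a p under 0.05 in the authors' deposited table, or 3.26% of those tested, against 8.88% of all tested rows. At least 1.5-fold higher in the KD were 3 of the 91 members (3.30%, against 7.63% of named rows), and at least 1.5-fold lower were 2 (2.20%, against 3.62%), and in either direction 11.2% of named rows passed. All 5 were among the 85 members at 10 FPKM or more, where 7.93% of named rows passed in either direction. Within 0.25 of 0 lay 67 members, or 73.6%, against 60.3% of named rows at 1 FPKM or more and 65.7% of those at 10 FPKM or more. No test of these shares was made, and since NT was 1 library, the spread between control cultures did not enter the authors' p-values.

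**Figure D1:**
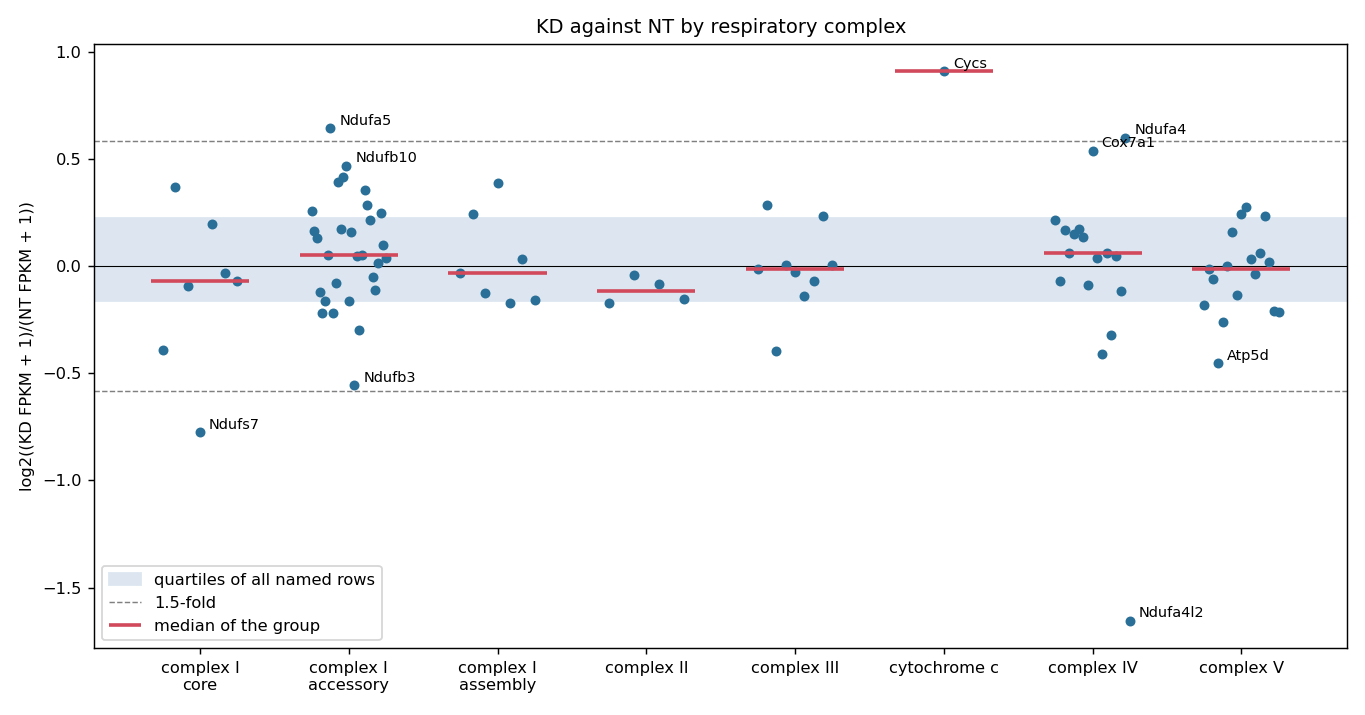
Log2 fold of KD over NT for each of 91 members at 1 FPKM or more (blue points), by complex, with the median of each group (red line), the quartiles of all named rows (band, -0.16 to 0.22) and lines at 1.5-fold. Most points lie in or near the band; Cycs, Ndufa5 and Ndufa4 lie above the upper line, and Ndufs7 and Ndufa4l2 below the lower.

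Levels differed far more between members than between conditions. Across the 91 members the log2 levels of KD and NT had a Pearson r of 0.986 and a Spearman rho of 0.983, a description over genes that share the same libraries. Atp5b, the catalytic beta subunit of ATP synthase, was the most abundant (1046 FPKM in KD cells, 1055 FPKM in NT). The median NT level, per length, was 333 FPKM in complex V, 227 FPKM in complex IV and 184 FPKM in complex III. It was 110 FPKM for accessory and 87.2 FPKM for core subunits of complex I, 105 FPKM in complex II and 8.40 FPKM for the Ndufaf assembly factors. Cycs, at 31.1 FPKM in NT, was below all 9 genes of complex III, the lowest of which, Uqcrfs1, was at 57.2 FPKM.

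**Figure D2:**
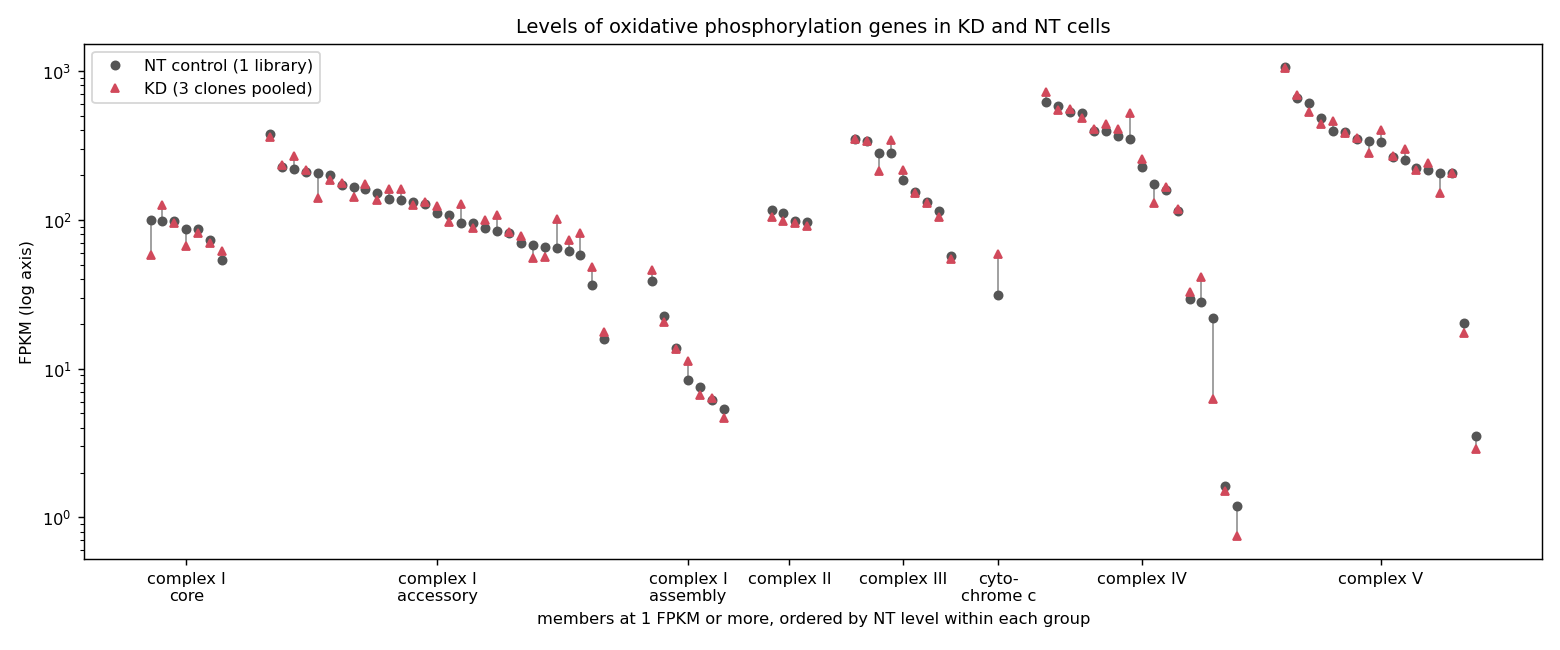
FPKM (log axis) of each of 91 members in NT (grey circles, 1 library) and in the KD (red triangles, 3 clones pooled), joined by a line and ordered by NT level within each complex. The paired symbols overlap for most members, while levels run from about 1 FPKM for Cox4i2 and Cox7b2 to 1055 FPKM for Atp5b.

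Cytochrome c, the soluble electron carrier between complexes III and IV, rose from 31.1 FPKM in NT to 59.1 FPKM in the KD, a ratio of 1.90 and a log2 fold of 0.91. The authors' deposited table gives it a p of 0.00015 and a q of 0.0204. Cycs lies on chromosome 6 (mm9, 50512562 to 50516473). Cyct, the testis form of cytochrome c, had 6.14 FPKM in KD cells and 2.24 FPKM in NT, and the authors' deposited table gives a q of 0.712. Cyct made up 9.41% of the summed cytochrome c level in the KD and 6.73% in NT. Hccs, the lyase that attaches heme to cytochrome c, had 16.6 against 12.5 FPKM, uncalled. Coding sequences at least 95% identical over at least 80% of that of Cycs occur in 4 other mouse genes, 3 of them pseudogenes, so the share of reads that belongs to Cycs itself is uncertain.

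Complex I, the entry point for electrons of NADH, held members that differed in opposite directions. The core subunits carry the flavin and the iron-sulfur clusters, and their median log2 fold was -0.069, with 2 above 0 and 5 below. Ndufs7, the subunit with the last iron-sulfur cluster before ubiquinone, was at 57.8 FPKM in the KD against 99.7 FPKM in NT. Its log2 fold was -0.78, the lowest of complex I, and the authors' deposited table gives a p of 0.0138 and a q of 0.302. Ndufs3 and Ndufs8, which lie in the same arm, were nearer to equal. Ndufs3 was at 81.5 against 87.0 FPKM, and Ndufs8 at 61.2 against 53.3 FPKM in a row shared with its neighbour Aldh3b1.

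In the part of that same arm that oxidises NADH, Ndufs1, the largest iron-sulfur subunit, was at 66.2 FPKM in KD cells and 87.2 in NT. Ndufv1, which binds NADH and the flavin, was at 95.3 against 97.5 FPKM. Its partner Ndufv2 was at 69.4 against 72.9 FPKM. The 7 core levels lay within a 1.87-fold range in NT.

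The 29 accessory subunits, which surround the core, had a median log2 fold of 0.053, with 19 above 0 and 10 below. Ndufa5, a small subunit of the peripheral arm, was at 101 FPKM in the KD against 64.2 FPKM in NT. Its log2 fold was 0.64 (q = 0.596, authors' deposited table). Ndufb10, of the membrane arm, followed with 81.0 against 58.3 FPKM and a log2 fold of 0.47. The lowest accessory subunits were Ndufb3, also of the membrane arm, at 140 against 206 FPKM (log2 fold -0.56), and Ndufb5, at 55.3 against 68.1 FPKM. The highest level, 359 against 379 FPKM, stood in the row that Ndufa7 shares with Kank3. Accessory subunits spanned a 23.8-fold range of level in NT, down to Ndufa11 at 17.5 FPKM in KD cells and 15.9 FPKM in NT.

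The 7 Ndufaf genes, which help to build complex I, were lower in level and had a median log2 fold of -0.031. Ndufaf2 was at 45.9 against 38.7 FPKM in NT, and Ndufaf4 at 11.3 against 8.40 FPKM. Ndufaf5 was at 4.66 against 5.39 FPKM, and Ndufaf7 at 6.63 against 7.53 FPKM. None of the 7 was called.

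Complex II, succinate dehydrogenase, is the one complex built from nuclear genes alone, and its genes were close to each other in level and in fold. All 4 genes were slightly lower in the KD, with log2 folds from -0.17 to -0.044 and none called. Sdha, the flavin subunit, was at 98.6 FPKM in the KD against 111 FPKM in NT. Sdhb, the iron-sulfur subunit, was at 95.6 against 98.6 FPKM. The membrane anchors Sdhc and Sdhd were at 90.6 against 96.0 FPKM and 105 against 117 FPKM. The 4 levels lay within 1.22-fold of each other in NT and within 1.16-fold in the KD.

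Complex III passes electrons from ubiquinol to cytochrome c, and its 9 genes had a median log2 fold of -0.016. The redox subunits differed little between conditions. Cyc1, cytochrome c1, was at 151 against 153 FPKM in NT, and Uqcrfs1, the Rieske iron-sulfur protein, at 54.4 against 57.2 FPKM. The core proteins Uqcrc1 and Uqcrc2 were at 130 against 132 FPKM and 104 against 115 FPKM. Uqcrb, the most abundant, was at 348 against 347 FPKM. The small subunits gave both extremes. Uqcr11 was at 214 against 282 FPKM with a log2 fold of -0.40, Uqcr10 at 341 against 279 FPKM with a log2 fold of 0.29, and Uqcrh at 217 against 184 FPKM. The locus of Uqcr10 in the table is 19.0 times as long as the gene and holds 3 rows, so its reads may be mixed with those of neighbours.

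Complex IV, cytochrome c oxidase, takes electrons from cytochrome c to oxygen. The 17 of its 20 genes at 1 FPKM or more had a median log2 fold of 0.062, with 11 above 0 and 6 below. Ndufa4 was first assigned to complex I and is now known as a complex IV subunit. It had 524 FPKM in KD cells and 346 FPKM in NT, with a log2 fold of 0.60 and, in the authors' deposited table, a p of 0.0144 and a q of 0.306. Its paralog Ndufa4l2, a known target of hypoxia-inducible factors, went the opposite way, at 6.26 FPKM against 21.9 FPKM. That log2 fold of -1.66 was the farthest from 0 of all members, yet the authors' deposited table gives a p of 0.401. The locus of Ndufa4l2 holds 2 rows, so its reads may be mixed with those of a neighbour. Ndufa4l2 made up 1.18% of the summed level of the pair in the KD and 5.95% in NT. Cox4i1, the major form of subunit 4 and the most abundant gene of the complex, was at 723 against 622 FPKM. Cox5a and Cox5b were at 255 against 227 FPKM and 552 against 529 FPKM. Cox7a2l, which joins complexes III and IV in supercomplexes, was at 130 against 173 FPKM with a log2 fold of -0.41 and was not called.

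Tissue-restricted forms of complex IV subunits were mostly far below their common forms in both conditions. Cox4i2, the form of lung and hypoxic cells, had 1.504 FPKM in KD cells and 1.629 FPKM in NT, or 0.208% and 0.261% of the pair. Cox6a2, the heart and muscle form, was at 0.583 against 0.611 FPKM beside 439 against 395 FPKM for Cox6a1. Cox8b, another muscle form, was listed at 0 in both conditions, and Cox8c, of testis, was at 0.296 against 0.141 FPKM beside 484 against 525 FPKM for Cox8a. These low values rest on few fragments at an unknown depth. Exceptions were Cox6b2, the testis form, at 32.5 against 29.5 FPKM beside 410 against 363 FPKM for Cox6b1, and Cox7a1, the heart and muscle form. Cox7a1 was at 41.15 against 28.04 FPKM beside 117 against 114 FPKM for Cox7a2, or 26.0% of that pair in the KD and 19.7% in NT. Its log2 fold was 0.54, and it was not called (q = 0.999, authors' deposited table).

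**Figure D3:**
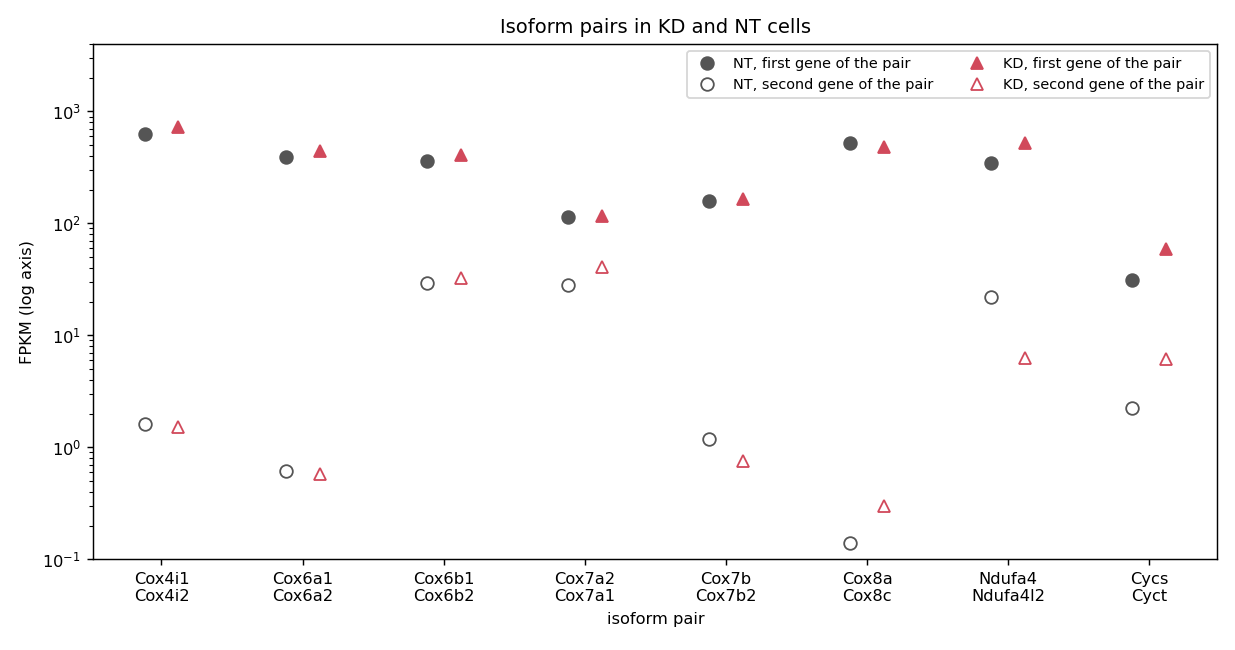
FPKM (log axis) of 8 isoform pairs in NT (circles) and the KD (triangles); filled symbols are the first-named gene of each pair and open symbols the second. The second gene is the lower in every pair and both conditions, and the distance between NT and KD symbols is widest for Ndufa4l2, at 21.9 against 6.26 FPKM.

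Complex V makes ATP, and its 17 genes had a median log2 fold of -0.013, with 7 above 0 and 10 below. Of the catalytic head, Atp5b is given above, Atp5a1, the alpha subunit, was at 533 against 605 FPKM, and Atp5c1, the gamma shaft, at 214 against 223 FPKM. Atp5d and Atp5e, the delta and epsilon subunits at the foot of the shaft, had the lowest folds. Atp5d was at 151 FPKM in the KD against 207 FPKM in NT (log2 fold -0.45, with a p of 0.0596 in the authors' deposited table), and Atp5e at 280 against 336 FPKM. Atp5h, of the peripheral stalk, had the highest fold at 404 against 333 FPKM, and none of the 17 was called. The rule also took Atp5s and Atp5sl, which RefSeq names Dmac2l and Dmac2. They were at 2.90 against 3.51 FPKM and 17.3 against 20.2 FPKM.

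The proton-carrying ring of complex V is made from 3 genes that encode the same mature protein. Atp5g1 was at 239 FPKM in the KD against 214 FPKM in NT, Atp5g2 at 439 against 483 FPKM and Atp5g3 at 298 against 252 FPKM. They summed to 976 FPKM in KD cells and 949 FPKM in NT. Atp5g2 gave 44.98% of it in the KD and 50.9% in NT, so the sum was steadier than its parts.

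The members farthest from 0 were not spread evenly over the genome. All 5 members past 1.5-fold lay on chromosome 6 (Cycs, Ndufa4, Ndufa5) or chromosome 10 (Ndufs7, Ndufa4l2), which together held 11 of the 91 members. None of the 80 members elsewhere was past 1.5-fold, and their folds ran from -0.56 to 0.54. Differences of this size were not confined to these chromosomes. Of the 11166 named rows elsewhere, 821 were at least 1.5-fold higher and 341 at least 1.5-fold lower. With a pseudocount of 0.1 in place of 1, 3 members were at least 1.5-fold lower, the third being Cox7b2 on chromosome 5, a testis form of a complex IV subunit at 0.751 against 1.19 FPKM. On chromosome 6 all 5 members were above 0, with a median of 0.60, and on chromosome 10 all 6 were below 0, with a median of -0.43. The other named rows of these chromosomes leaned the same way. The 566 rows of chromosome 6 had a median of 0.26, with 81.1% above 0, and 16.4% of them were at least 1.5-fold higher. The 598 rows of chromosome 10 had a median of -0.16, with 66.7% below 0, and 16.2% of them were at least 1.5-fold lower. The medians of the 18 other chromosomes, the Y left out, ran from -0.022 to 0.11. Shorter windows elsewhere were shifted as well. Of 135 windows of 20 Mb with at least 20 named rows, 4 had a median at or below -0.2, of which 2 were on chromosome 10. At or above 0.2 were 10 windows, 7 of them on chromosome 6. Chromosome 1 had windows at -0.45 (60 to 80 Mb) and 0.31 (140 to 160 Mb).

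On chromosome 10 the lower values stood in 1 stretch. Its bounds of 60 and 100 Mb (mm9) were chosen after the values were seen, which favours a contrast with the rest. Between them, 305 named rows had a median of -0.43 and 84.9% were below 0. The 293 rows of the rest of the chromosome had a median of 0.0099, with 47.8% below 0. Atp5d, Ndufs7, Uqcr11 and Ndufa12 lie in that stretch. Atp5b and Ndufa4l2 lie outside it, and Atp5b had a log2 fold of -0.013.

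Each member was therefore set beside up to 40 named rows of its chromosome that were not members, the nearest 20 on either side. Near a chromosome end fewer were found, down to 28 for Ndufa3. For 12 members the median of these neighbours was 0.25 or more from 0, and 11 of the 12 had the sign of their neighbours. The 12 are not separate observations, as 11 of them lay on chromosomes 1, 6 or 10, several in the same region. Atp5d, Ndufs7 and Uqcr11, at 79.6, 79.7 and 79.9 Mb of chromosome 10, have overlapping sets of neighbours. The 6 with higher neighbours included Cycs (neighbour median 0.39), Ndufa4 (0.39), Ndufa5 (0.38), Ndufb2 (0.27) and Cox4i2 (0.25), the last of which was itself at -0.070. Those with lower neighbours were Atp5d (-0.56), Ndufs7 (-0.56), Uqcr11 (-0.54), Ndufa12 (-0.50), Ndufs1 (-0.46) and Ndufb3 (-0.31), the last pair on chromosome 1. Of the other 79 members 36 had the sign of their neighbours, and 1 of the 79, Ndufa4l2, was past 1.5-fold. The loci of Ndufb2 and Cox4i2 are 18.4 and 6.97 times as long as the genes and hold 2 rows each, so their reads may be mixed with those of neighbours.

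Cycs stood 0.52 above its neighbours, of which 38 of 40 were above 0. Ndufa5 and Ndufa4 stood 0.26 and 0.21 above theirs, and Ndufs7 stood 0.22 below. Atp5d and Uqcr11 were 0.11 and 0.15 above theirs. Over all 91 members the Pearson r between a member's fold and its neighbours' median was 0.48 and the Spearman rho 0.21, and off chromosomes 6 and 10 the Pearson r was 0.17. These are descriptions of values from the same libraries. Subtracting the neighbours' median did not narrow the middle of the group, whose quartiles lay 0.30 apart before and 0.33 after, while the SD over members went from 0.32 to 0.28. A cause of the shared shifts was not tested. With 1 control library and the clones pooled, the regional values cannot be told apart from a difference in that library or in 1 clone.

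**Figure D4:**
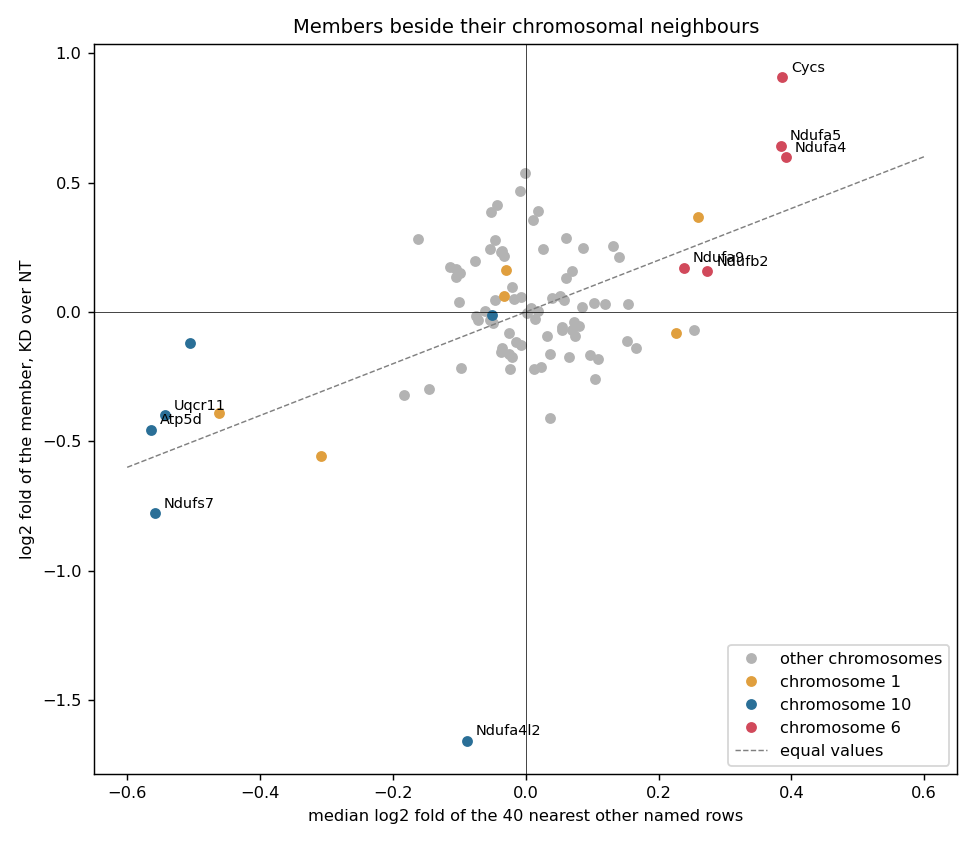
Log2 fold of each of 91 members against the median log2 fold of up to 40 nearest other named rows, coloured by chromosome. A dashed line marks equal values. Members of chromosomes 6 and 10 farther from 0 are labelled. Those of chromosome 6 at the far right and of chromosomes 10 and 1 at the far left have the sign of their neighbours, whereas Ndufa4l2, at -1.66, has neighbours near 0.

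The promoters of the members past 1.5-fold are shown because these genes carry the largest differences. They cover 250 bases before to 50 bases after the transcript start, from RefSeq on GRCm38.p6, a build other than the mm9 of the table. Of the 94 members 77 matched an entry by symbol or synonym, with 83 promoters in all, and Ndufa4l2 had none. The motifs searched on both strands were those of the respiratory gene activators NRF1 (GCGCA, any base, then GCGC), GABPA (CCGGAAG) and YY1 (AAGATGGC), and of CREB (TGACGTCA). Only exact matches were counted, and they are in capitals.
Cycs: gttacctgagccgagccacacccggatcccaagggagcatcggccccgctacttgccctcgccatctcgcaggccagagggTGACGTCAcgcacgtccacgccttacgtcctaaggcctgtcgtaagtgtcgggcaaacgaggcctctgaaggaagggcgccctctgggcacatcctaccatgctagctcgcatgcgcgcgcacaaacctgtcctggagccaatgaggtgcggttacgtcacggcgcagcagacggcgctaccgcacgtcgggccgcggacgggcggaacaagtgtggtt
Ndufa4: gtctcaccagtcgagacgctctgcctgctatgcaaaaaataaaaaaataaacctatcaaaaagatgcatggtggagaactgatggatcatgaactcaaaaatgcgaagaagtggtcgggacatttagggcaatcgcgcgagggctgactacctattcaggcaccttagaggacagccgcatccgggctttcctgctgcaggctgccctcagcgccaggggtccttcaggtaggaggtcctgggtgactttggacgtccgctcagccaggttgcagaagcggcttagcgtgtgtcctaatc
Ndufa5: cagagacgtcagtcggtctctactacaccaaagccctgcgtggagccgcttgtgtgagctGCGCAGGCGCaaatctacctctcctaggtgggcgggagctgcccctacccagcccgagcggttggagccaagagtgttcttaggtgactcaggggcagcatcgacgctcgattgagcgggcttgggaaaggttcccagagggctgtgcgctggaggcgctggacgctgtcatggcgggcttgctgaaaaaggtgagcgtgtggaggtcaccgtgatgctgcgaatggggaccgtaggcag
Ndufs7: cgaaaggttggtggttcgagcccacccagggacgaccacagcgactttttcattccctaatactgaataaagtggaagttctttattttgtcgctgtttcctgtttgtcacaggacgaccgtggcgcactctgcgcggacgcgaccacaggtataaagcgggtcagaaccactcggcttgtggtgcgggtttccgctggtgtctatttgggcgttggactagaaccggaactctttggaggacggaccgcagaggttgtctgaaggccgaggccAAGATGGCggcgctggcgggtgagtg
The windows are chr6:50566520-50566819 on the minus strand for Cycs, chr6:11907401-11907700 on the minus strand for Ndufa4, chr6:24527477-24527776 on the minus strand for Ndufa5 (1 of its 2 starts) and chr10:80249199-80249498 on the plus strand for Ndufs7.

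By exact match, the Cycs window held 1 CREB motif, that of Ndufa5 1 NRF1 motif and that of Ndufs7 1 YY1 motif, while that of Ndufa4 held none of the 4. The Cycs window also holds TCGCATGCGC, which differs from the NRF1 motif in its first base alone and was not counted. No exact match was shared by the 3 chromosome 6 members that were at least 1.5-fold higher in the KD, and near matches were not searched for. Across the 83 member promoters the NRF1 motif was present in 24.1%, against 4.60% of all 32851 promoters of this length. GABPA motifs were in 20.5% against 8.86%, YY1 motifs in 14.5% against 2.75% and CREB motifs in 6.02% against 1.79%. The 19 members at 1 FPKM or more with an NRF1 motif had a median log2 fold of 0.058 and the 57 without one 0.014. For GABPA the medians were 0.053 and 0.019, and for YY1 0.014 and 0.038. The widest gap was that of CREB, a motif added after values were seen. The 5 members with it had a median of 0.16 and the 71 without one 0.019. The 5 included Cycs and Ndufb2, both on chromosome 6, where all named rows had a median of 0.26. The part of the motif in this gap was not tested. A match describes the letters and not a bound site.

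The lists of partner genes of the respiratory chain likewise had medians near 0, and none of their genes was called, where 1.15% of all tested rows were. The 36 assembly factors outside the rule had a median log2 fold of 0.040, with 20 above 0 and 16 below. Cox17, the copper chaperone of complex IV, was at 217 against 170 FPKM in NT, and Uqcc2, for complex III, at 132 against 130 FPKM. The 22 genes of the citric acid cycle and pyruvate dehydrogenase had a median of 0.096. Mdh2, malate dehydrogenase, was at 189 against 144 FPKM and Pdhb, of pyruvate dehydrogenase, at 138 against 141 FPKM. Carriers, uncoupling proteins and quinone partners had a median of -0.11, with 10 of 23 above 0. Atpif1, the inhibitor of reversed ATP synthase, was at 365 against 398 FPKM and the ADP/ATP carrier Slc25a5 at 338 against 385 FPKM. Among 7 partners of cytochrome c in apoptosis the median was -0.087, with 3 above 0 and 4 below. Bax, which permeabilises the outer membrane, was at 278 against 234 FPKM, and Diablo, which is released together with cytochrome c and blocks caspase inhibitors, at 29.4 against 32.0 FPKM.

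**Figure D5:**
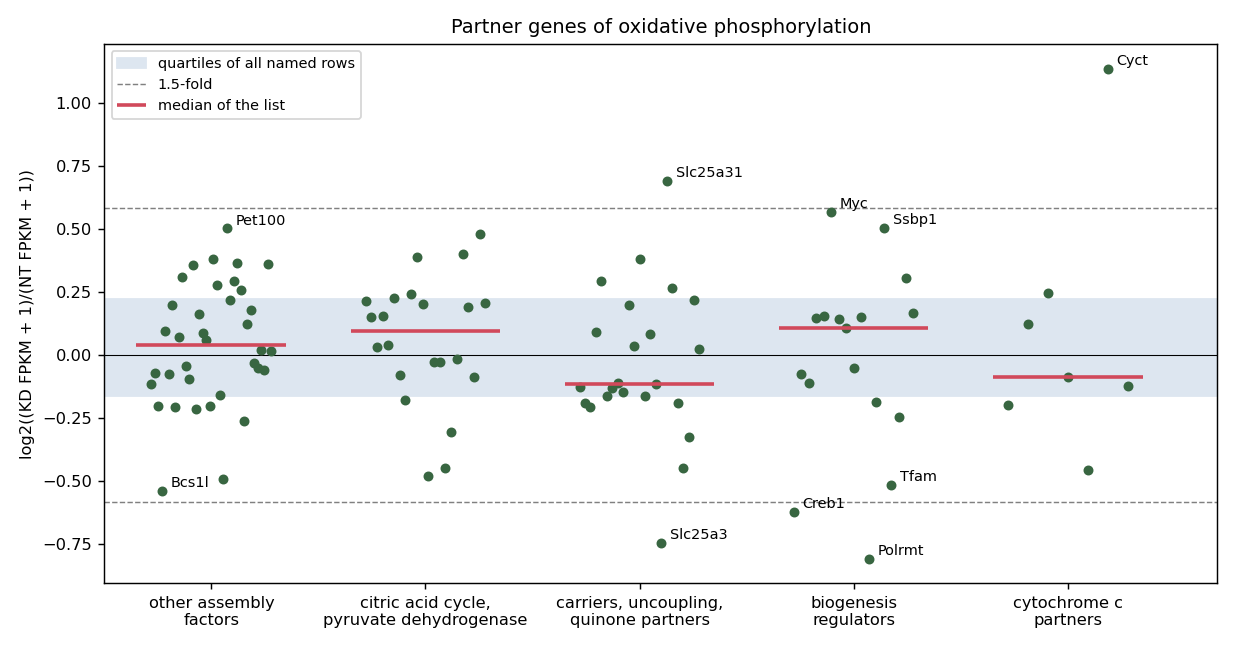
Log2 fold of KD over NT for genes at 1 FPKM or more (green points) in 5 lists of partner genes, with list medians (red lines), the quartiles of all named rows (band) and lines at 1.5-fold. List medians run from -0.11 to 0.11, and Cyct at 1.14 and Polrmt at -0.81 are the extremes.

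The regulators of mitochondrial biogenesis had a median log2 fold of 0.11 over 17 genes, with none of 18 tested called, where 1.15% of all tested rows were. A p under 0.05 in the authors' deposited table was found for 3 of the 18 (Polrmt, Creb1 and Tfam), against 8.88% of all tested rows. Of the factors that bind respiratory promoters, Nrf1 had 24.5 FPKM in KD cells and 22.0 FPKM in NT, Gabpa 41.0 against 44.3 FPKM and Yy1 54.3 against 48.3 FPKM. The coactivator Ppargc1a was at 0.021 against 0.0048 FPKM and was not tested. The genes that copy, package or transcribe mitochondrial DNA had values on both sides of 0. Polrmt, the mitochondrial RNA polymerase, was at 13.1 against 23.8 FPKM (q = 0.184, authors' deposited table), and Tfam, its packaging and initiation factor, at 26.7 against 38.6 FPKM. Ssbp1, the single-strand binding protein and most abundant of the list, was at 133 against 93.6 FPKM. Nearer to 0 were Polg and Polg2, the subunits of the mitochondrial DNA polymerase, with log2 folds of -0.051 and 0.15, and the helicase Peo1, with 0.11. The transcription factors Tfb1m and Tfb2m were at -0.25 and 0.31.

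Chromosomal position recurred among these partner genes. Polrmt, Tfam and the phosphate carrier Slc25a3, at 186 against 313 FPKM (q = 0.0804, authors' deposited table), lie in the stretch of chromosome 10 that also holds Ndufs7. Creb1, at 12.9 against 20.3 FPKM, lies on chromosome 1 in the same 20 Mb window as Ndufs1, whose 88 named rows had a median of -0.45. On chromosome 6 all 5 partner genes at 1 FPKM or more were above 0, Ssbp1 among them, where 81.1% of named rows were. On chromosome 10, 5 of 6 were below 0, where 66.7% of named rows were. Mitochondrially encoded subunits could not be set beside the nuclear ones, as the mitochondrial row exceeded the depth limit of Cuffdiff and was listed at 0 in both conditions.

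The ES cell label was met by all 8 ES cell markers, which summed to 6106 against 5850 FPKM in NT, and none was called. Markers of primitive endoderm, 12 in all, held 10 that were marked as higher, where 0.963% of all tested rows were. Foxa2 and Hnf4a were not marked, and Hnf4a was lower, at 1.27 FPKM in the KD against 1.65 FPKM in NT. The 12 summed to 557 FPKM in the KD against 111 FPKM in NT, with none at 0. The 12 feeder fibroblast markers summed to 24.95 against 13.49 FPKM, and none of the 8 tested was called, where 1.15% of all tested rows were. Of these 8, 4 had a p under 0.05 in the authors' deposited table, against 8.88% of all tested rows. At least 1.5-fold higher in the KD were 4 of the 7 markers at 1 FPKM or more, against 7.63% of named rows. Lum was listed at 0 in both conditions and Fap in NT. The part of these cells in the levels of oxidative phosphorylation genes was not tested, and in bulk RNA fewer cells of a type and less RNA per cell cannot be told apart.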

How the data were processed

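Gene expression was measured by RNA sequencing in 4 libraries of TBV2 cells, 1 NT and 3 KD. Per the submitters' processing notes, TopHat, Cufflinks and Cuffdiff were used with mm9. Versions, annotation, strand and scaling were not given in the sources used here. Deposited FPKM is 1 value per gene for a condition named treated, taken as the KD because it is the other condition in the labels, and 1 for control, per the file headers. Each row also has the Cuffdiff p-value and q-value that the authors deposited. Rows they marked had a q of at most 0.0478. The deposited q equalled a Benjamini-Hochberg adjustment over all 15477 tested rows to within 5.2e-07.

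Log2 folds were recomputed with a pseudocount of 1 FPKM, which understates the change of low genes. Medians used genes at 1 FPKM or more in either condition. With 1 value per condition no test was run. A count of 1.5-fold differences stands in for calls. Locus lengths matched RefSeq gene lengths more often with starts counted from 0 (6695 loci) than from 1 (383 loci), and 1 was added to each start. Of the members, 2 stand in rows with several symbols and 18 at loci that hold other rows, where reads may have been mixed. Copies were sought with blastn 2.17.0 among GENCODE transcripts, and 22 of 94 members had at least 1. Code was tested on simulated data. Python 3.11.15 and pandas 2.3.3 were used.

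Genes were named by a written rule: every marked member, the most abundant member and the 2 highest and 2 lowest folds of each complex, core subunits and isoform pairs, and in other lists marked genes and the 2 most abundant. A result under this rule is not reported here. Hccs, Ndufa11, Polrmt, Tfam, Slc25a3, Creb1, Nrf1, Gabpa, Ppargc1a, Atp5s, Atp5sl, Cox7b2, Polg, Polg2, Peo1, Tfb1m, Tfb2m, Ndufb2, Ndufa12, Lum, Fap, Foxa2 and Hnf4a were added after values were seen. So were the neighbour analysis, the chromosome windows, the CREB motif and the near match to the NRF1 motif in the Cycs window. Members and lists were chosen with earlier results of these data known.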

Additional observations from a re-analysis of the deposited data

How the results depend on the processing

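Each alternative changed 1 choice. Of 94 alternative values 92 stayed within 0.1 on the log2 scale of the reported one or, for counts, within 1.5 times. The median log2 fold of all members ran from -0.016 to 0.019 over 10 alternatives (pseudocounts of 0.1 and 5, other FPKM minimums, left-out members, summed rows, centring, and chromosomes 6, 10 and Y left out). With a minimum of 10 FPKM the median of the Ndufaf assembly factors was 0.11, since fewer genes remained. At an unadjusted p under 0.05 3 members were counted in place of 1. Centring on the median of all named genes left 2 members at least 1.5-fold higher in place of 3, and a pseudocount of 0.1 gave 3 members at least 1.5-fold lower in place of 2, with Cox7b2 added. Cytochrome c had no value without chromosome 6. Counting Ndufa4 and Ndufa4l2 with complex I was chosen after seeing the data. No paired analysis was possible because the clones are pooled and NT is 1 library, and for the same reason no library could be left out. The depth per library is unknown, so values near or under 1 FPKM, such as those of Cox4i2, Cox6a2, Cox7b2 and Cox8c, have no stated precision.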
